A study of Mus musculus with 161 samples.

Results

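Boundary 5 is the 20-kb bin chrX:101211148-101231148 (mm9) beside Rlim, one of the positions on the X chromosome taken by the study as CTCF-dependent boundaries of topologically associating domains (TADs). The contacts described here are those that jump over it, defined as pairs of a forward and a reverse 5C primer with the midpoint of 1 restriction fragment within 100 kb below the bin and the midpoint of the other within 100 kb above it. Of 244944 primer pairs in the design, 412 met this rule, and 349 of the 212485 pairs with corrected values did. No contact value entered the choice of the pairs, but the boundary itself was placed by the study on untreated CTCF-AID cells of an earlier experiment, and positions that were still insulation minima once auxin had removed CTCF from those cells were left out. The choice of the boundary and the no-dox comparison below, made on other libraries, thus address the same loss of CTCF.

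Insulator protein CTCF binds DNA through a central array of zinc fingers, and cohesin extrudes chromatin loops until it meets bound CTCF. The motif that CTCF recognises is not symmetric, and pairs of bound motifs that point toward each other are typical anchors of such loops. A TAD boundary is a stretch that contacts cross less often than their genomic distance predicts, so contact across it rises when insulation is lost. Rlim encodes an X-linked E3 ubiquitin ligase that takes part in X-chromosome inactivation in female cells, and the cells used here are male mouse embryonic stem cells with a single X chromosome.

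Contacts were measured in 91 libraries of 29 groups by chromosome-conformation capture carbon copy (5C), in which primers annealed to the ends of HindIII fragments report ligation between the fragments. In 23 groups, a CTCF cDNA was placed at Tigre under a doxycycline-inducible (TetO, Rtta3G) promoter in CTCF-AID, Tir1 cells, in which auxin degrades the endogenous protein. In 22 of these groups the cells received auxin (500 µM) and doxycycline (dox, 1 µg/ml) for 4 days, and carried Full-length CTCF (line EN133.10, n = 14) or Full-length_low_expression (n = 2). The mutants were Del_1-265 (clone1, n = 6, and clone2, n = 4), Del_13-33 (clone 1, n = 6, and clone 2, n = 4), Del_1-31 (2 clones, n = 2 each), Del_1-88, 89-178, 179-265, 264-288, H288R, Y226A-F228A, del_13-33-Y226A-F228A, N/C-term-swap, Mut_Parylation, Sumoylation_deficient_1_K74R_Del_576-614 and Sumoylation_deficient_2_K74R_Del_615-736 (n = 2 each), line EN142.1 (n = 3), and Del_577-736 and Del_615-736 (n = 1 each). The labels of EN142.1 name the deletion Del_576-614 in 2 libraries and Del_615-736 in 1, so which of them the line carries cannot be told from the labels. The labels give the lines 89-178, 179-265 and 264-288 by residues alone, and the study describes them as deletions. The Full-length line was also grown with auxin but no dox for 4 days (n = 2), which leaves it without the transgene product. Untreated cells were WT parental E14Tg2a (n = 3), CTCF-AID, Tir1 (n = 4), and cells with residues 13-33 deleted from endogenous CTCF, either untagged (clones of n = 3 and n = 4) or in the AID-tagged protein (2 clones, n = 4 each). Each line is a single clone. The transgenes were expressed at different levels according to the study, which measured them by flow cytometry and set insulation against them. For the 1-265 deletion it reports slightly higher expression by Western blot. Expression was not among the data used here, so the level and the sequence of a mutant protein cannot be told apart from these values.

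Over the 82 libraries with a complete count matrix, the total was 3631870 to 23419010 counts, with a median of 11971070. The pairs across boundary 5 received 10274 to 84253 of these counts per library, with a median of 32505, which gave a counting error of 0.345% to 0.987% on their sum. No 2 of the 91 libraries were identical. The study states that every experiment had at least 2 biological replicates, but the labels do not say which libraries were separate cultures. The p-values therefore measure the spread between libraries, part of which may be technical. Where a line is 1 clone, they hold no spread between clones.

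The upstream flank held 24 fragments with corrected values and the downstream flank 29, out of 58 designed. Rlim (ENSMUSG00000056537.5, chrX:101152502-101176623, minus strand) lies within the upstream flank, where 4 of these fragments overlapped it. C77370 (ENSMUSG00000046449.9, chrX:101272773-101396524, minus strand) starts beyond the end of the downstream flank and reaches into it from above, and 20 of the 29 downstream fragments overlapped it. The flanks also hold the pseudogenes Gm9166 and Gm14892 and the small RNA genes U6, SNORA17, AL671963.1 and Mir672.

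In FLAG ChIP-seq of the Full-length line, 6 peaks of the tagged CTCF fell into the flanks and 0 into the boundary bin. The sequence CCNNNAGNNGG, the core of the CTCF motif, was searched on both strands. It was found in 66.5% of the 49682 peaks of the list and in 8.16% of the 22806 windows of 200 bp outside peaks in the 5C region, and it stood in 5 of the 6 peaks. These 5 are printed because they are the mapped CTCF positions nearest to the contacts measured, written on the plus strand of mm9, with the motif in capitals.
upstream peak 1: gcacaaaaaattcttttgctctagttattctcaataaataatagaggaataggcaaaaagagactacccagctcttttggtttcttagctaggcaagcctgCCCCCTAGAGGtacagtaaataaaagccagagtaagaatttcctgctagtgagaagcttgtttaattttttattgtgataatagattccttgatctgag
upstream peak 2: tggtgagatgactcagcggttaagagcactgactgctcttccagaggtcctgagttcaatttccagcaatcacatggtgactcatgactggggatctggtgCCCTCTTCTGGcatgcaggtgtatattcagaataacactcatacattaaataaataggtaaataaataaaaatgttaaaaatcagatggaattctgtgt
upstream peak 4: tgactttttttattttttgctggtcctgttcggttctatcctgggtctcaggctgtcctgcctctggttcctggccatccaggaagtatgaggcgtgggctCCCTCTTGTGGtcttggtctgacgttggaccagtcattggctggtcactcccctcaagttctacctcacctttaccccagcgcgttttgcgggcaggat
downstream peak 1: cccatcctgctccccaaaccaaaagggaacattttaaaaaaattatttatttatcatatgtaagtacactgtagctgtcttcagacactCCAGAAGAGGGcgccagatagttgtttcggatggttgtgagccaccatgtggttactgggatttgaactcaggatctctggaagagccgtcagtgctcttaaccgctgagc
downstream peak 2: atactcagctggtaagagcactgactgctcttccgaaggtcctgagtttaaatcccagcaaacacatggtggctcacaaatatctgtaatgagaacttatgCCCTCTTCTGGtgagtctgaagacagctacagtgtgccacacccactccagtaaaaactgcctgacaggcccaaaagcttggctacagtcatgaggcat
Upstream peak 1 (chrX:101132766-101132965) lay 78.3 kb below the bin, between Gm9166 and Rlim. Upstream peaks 2 (chrX:101185864-101186063) and 4 (chrX:101187133-101187332) lay 25.2 and 23.9 kb below it, between Rlim and Gm14892, with a further peak between them at 24.1 kb (chrX:101186963-101187162) that overlapped peak 4 and held no match. All 3 upstream motifs were on the minus strand. Downstream peaks 1 (chrX:101307049-101307248) and 2 (chrX:101309995-101310194) lay 76.0 and 78.9 kb above the bin in an intron of C77370, with the motif on the plus strand in the first and on the minus strand in the second. The 11 letters CCAGAAGAGGG were shared by upstream peak 2 and both downstream peaks.

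To compare libraries, the corrected signal of the 349 pairs was summed and divided by the sum expected from all primer pairs of that library at the same distance, in classes of 10 kb. The log2 of this ratio is called the crossing score, and 0 means that contact across the boundary was as frequent as distance alone predicts. All 91 libraries scored below 0, from −0.99 to −0.25.

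In WT cells contact across the boundary was 0.535 of that expected. The 3 WT libraries scored −0.94, −0.89 and −0.88, and the 4 CTCF-AID libraries −0.84, −0.86, −0.91 and −0.93. These 2 parental groups overlapped (difference 0.02, exact permutation p = 0.514), and with 4 libraries against 3 the smallest p was 0.0571. Deleting residues 13-33 from endogenous CTCF left the score at −0.90 ± 0.020 (SD, n = 7) in untagged cells and at −0.89 ± 0.054 (n = 8) in AID-tagged cells. These means lay 0.00 and −0.01 from those of the parental groups (adjusted p = 0.9 for both, exact permutation test). No difference was detectable at this spread.

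With Full-length CTCF expressed from the transgene, contact was 0.624 of expected, and the 14 libraries ranged from −0.77 to −0.58 with a median of −0.68. All of them scored above every CTCF-AID library, by 0.20 on average (fold 1.15, adjusted p = 0.00196, exact permutation test). Only 2 Full-length libraries have numbers close to CTCF-AID libraries, and there CTCF-AID differed from Full-length by −0.19. The groups also differ in treatment, and the study puts the transgene at a lower level than endogenous CTCF-AID. The parts of treatment, level and library series were not tested. Without dox, the same line rose to −0.29 and −0.34, which is 0.803 of expected. The difference from the induced line was 0.36 (fold 1.29, adjusted p = 0.0238, exact permutation test), and the groups did not overlap. Before adjustment over 20 lines the p was 0.0167, the smallest that an exact permutation of 2 libraries against 14 can give, and the same holds for every line with 2 libraries that passed. The low-expression line scored −0.56 and −0.55, between the other states of Full-length CTCF and 0.12 above the high-expression line (adjusted p = 0.0238, exact permutation test).

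**Figure D1:**
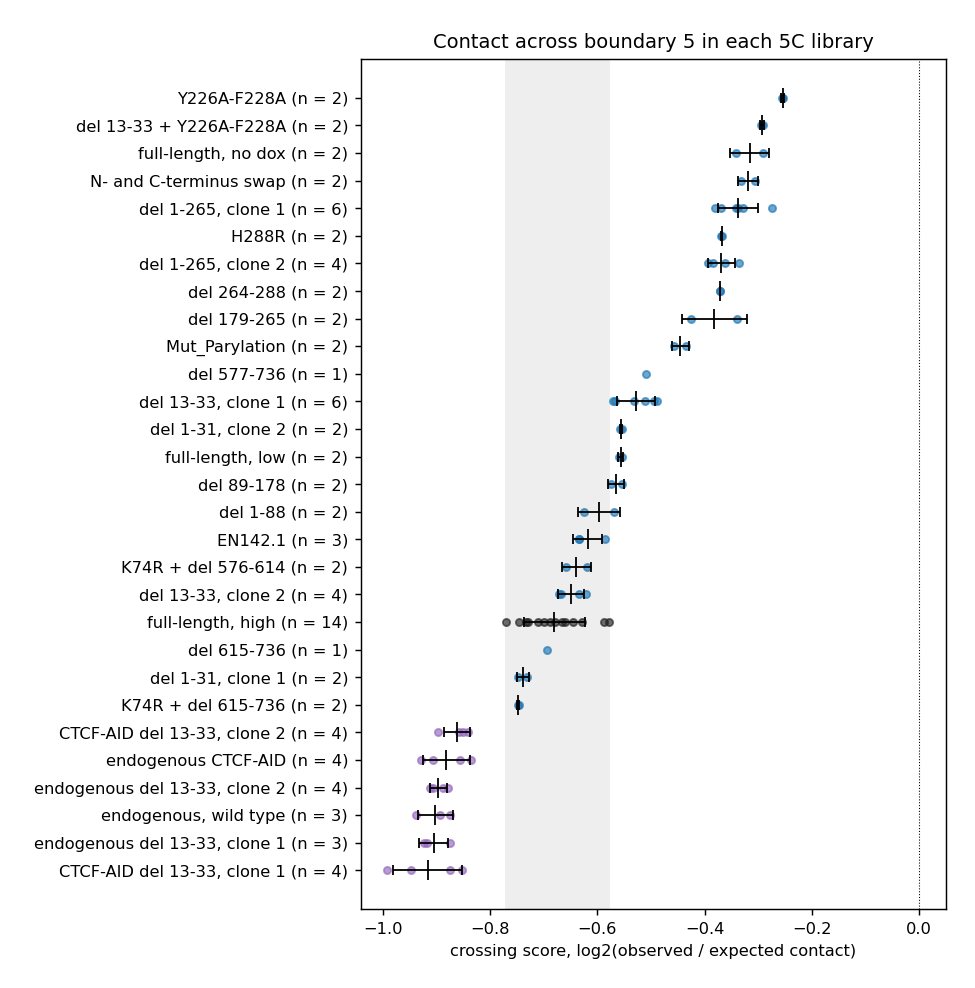
Crossing score at boundary 5, as log2 of observed over expected contact, in each of the 91 5C libraries (points), grouped by line and ordered by mean, with the mean (tall tick) and SD (bar). The grey band is the range of the 14 Full-length libraries, −0.77 to −0.58. All untreated groups lie to the left of it, and the Y226A-F228A line lies farthest to the right.

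Contact across the boundary rose in both Del_1-265 clones, which lack the N terminus of CTCF. The 6 libraries of Del_1-265 clone1 ranged from −0.38 to −0.27 with a median of −0.34, and the 4 of clone2 scored −0.36, −0.39, −0.38 and −0.34. No library of either clone overlapped the Full-length range. Contact rose in clone1 (difference 0.34, adjusted p = 0.000516) and in clone2 (difference 0.31, a fold of 1.24, adjusted p = 0.00436; exact permutation tests). Taken as 10 libraries, the Del_1-265 lines scored −0.35 ± 0.035 (SD) and differed from the no-dox libraries by −0.03 (adjusted p = 0.333), with overlapping values. They scored 0.21 higher than the low-expression line (adjusted p = 0.0455, exact permutation tests), the smallest p that 10 against 2 libraries allow being 0.0303.

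Contact also rose with some shorter changes within the N terminus and with changes at the first zinc finger. The 179-265 libraries scored −0.34 and −0.42, 0.30 above Full-length. The 264-288 libraries both scored −0.37, as did those of H288R, a substitution in the first zinc finger, and these lines lay 0.31 above Full-length. All 3 lines were above every Full-length library (adjusted p = 0.0238 each, exact permutation test). The 89-178 libraries scored −0.58 and −0.55, a smaller difference of 0.12 that also passed (adjusted p = 0.0238). Del_1-88 scored −0.62 and −0.57, and its difference of 0.08 did not pass (adjusted p = 0.0889, exact permutation test). Each of these lines was 1 clone, so the tests hold no spread between clones. Where a transgene had 2 clones, clone 1 differed from clone 2 by 0.03 (Del_1-265), 0.12 (Del_13-33) and −0.18 (Del_1-31). Differences among these deletions were not tested.

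The highest mean score was that of Y226A-F228A, which changes a tyrosine and a phenylalanine through which the N terminus can bind cohesin. Its libraries scored −0.26 and −0.25, 0.43 above Full-length, which is 0.838 of expected contact and a 1.34-fold rise (adjusted p = 0.0238, exact permutation test). Y226A-F228A also exceeded Del_1-265 by 0.10 (adjusted p = 0.0455, exact permutation test), with no overlap between the groups. The 2 libraries of Del_1-265 clone1 numbered next to those of Y226A-F228A averaged −0.31, which left a difference of 0.05 that 2 libraries a group cannot test. The double mutant del_13-33-Y226A-F228A scored −0.29 and −0.30, 0.39 above Full-length (adjusted p = 0.0238, exact permutation test). Both lines were among the libraries with the most counts, and the Y226A-F228A libraries held 68208 and 73306 counts across the boundary against at most 63430 in a Full-length library. Their libraries also have numbers next to the 2 Full-length libraries that scored highest, −0.59 and −0.58, against which the differences were 0.33 and 0.29. Compared only with Full-length libraries numbered close to them, H288R, no dox, 264-288 and N/C-term-swap differed by 0.36 each and 179-265 by 0.35, so Y226A-F228A did not rank first by that measure. The part of depth and of library series in these differences was not tested.

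The first residues gave mixed results between clones. Del_13-33 clone 1 ranged from −0.57 to −0.49 with a median of −0.52 in 6 libraries, all above Full-length (difference 0.15, adjusted p = 0.000516, exact permutation test). Clone 2 scored −0.67, −0.67, −0.64 and −0.62, inside the Full-length range (0.03, adjusted p = 0.315). The clones of Del_1-31 parted likewise, with −0.75 and −0.73 in clone 1 and −0.55 and −0.56 in clone 2. Clone 2 lay 0.12 above Full-length (adjusted p = 0.0238) and clone 1 lay −0.06 from it (adjusted p = 0.185, exact permutation tests). Over both clones, which differed from each other, the 10 Del_13-33 libraries lay below those of Del_1-265 by 0.23 (adjusted p = 0.00024, permutation test), and their difference from the no-dox libraries was −0.26 (adjusted p = 0.0455, exact permutation test).

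Among the other lines, N/C-term-swap, in which the termini trade places, scored −0.31 and −0.33, 0.36 above Full-length (adjusted p = 0.0238, exact permutation test). Del_1-265 differed from it by −0.03 with overlapping values (adjusted p = 0.327, exact permutation test). Mut_Parylation scored −0.43 and −0.46, 0.24 above Full-length (adjusted p = 0.0238, exact permutation test). Lines with replicates that lacked parts of the C terminus did not pass the test. The EN142.1 libraries scored −0.59, −0.63 and −0.63 (difference 0.06, adjusted p = 0.114), the first of them being the one labelled Del_615-736. Sumoylation_deficient_1_K74R_Del_576-614 scored −0.66 and −0.62 (0.04, adjusted p = 0.367) and Sumoylation_deficient_2_K74R_Del_615-736 scored −0.75 in both (−0.07, adjusted p = 0.137; exact permutation tests). The single libraries of Del_577-736 and Del_615-736 were not tested. Del_577-736 scored −0.51, above every Full-length library, and Del_615-736 scored −0.69, inside the Full-length range, both without a replicate check. In all, 14 of 20 lines with replicates differed from Full-length, each of them with more contact. When signal was summed with no expectation by distance, 4 of the 14 calls were lost, those of low expression (0.0816), 89-178 (0.15), Del_1-31 clone 2 (0.0887) and Del_13-33 clone 1 (0.0305), as was that of Full-length against CTCF-AID (0.18).

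Neighbouring positions in the order of group means mostly could not be told apart. The 6 untreated groups overlapped from one to the next, and all stood below the transgene groups, with 0.11 between the nearest means. Values also overlapped step by step from Full-length up to Del_577-736, and again from 179-265 to del_13-33-Y226A-F228A. Steps in the means without overlap stood below Del_615-736 (0.05), below Mut_Parylation (0.06), below 179-265 (0.06) and below Y226A-F228A (0.04). Each lay between groups of few libraries. Single libraries could lie closer, with −0.43 in Mut_Parylation and −0.42 in 179-265 at the nearest. Del_615-736 and the transgene groups below it lay inside the Full-length range.

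Contacts within each flank, which do not cross the boundary, were scored for comparison. They are no matched control, because they had no minimum distance, while pairs across the boundary lay at least 26.2 kb apart. Pairs within the upstream flank can also span the FLAG peaks that lie in it. Small differences within the flanks therefore do not show that a change was confined to contacts across the boundary. The 143 pairs within the upstream flank scored −0.16 ± 0.031 and the 210 pairs within the downstream flank −0.39 ± 0.0099 in the 14 Full-length libraries. Del_1-265 differed from these by 0.00 and −0.01, Y226A-F228A by −0.04 and −0.01, and the low-expression line by −0.01 and 0.00. The no-dox libraries differed by −0.10 upstream and 0.04 downstream, outside the Full-length range in both cases. None of the 8 tests passed (adjusted p = 0.0667 for the 2 no-dox tests and 0.14 to 0.721 for the others, permutation tests). Both no-dox tests had reached the smallest p that 2 libraries against 14 can give, 0.0167 (exact permutation test). That they did not pass after adjustment is therefore no evidence of unchanged flanks. With flanks widened to 200 kb, Del_1-265 passed within the upstream flank, by −0.0206 (adjusted p = 0.00704, permutation test).

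The change was also compared with that at boundaries 1, 2, 3, 4 and 6, where the same rule selected at least 239 pairs each. In Full-length libraries these boundaries scored 0.16, −0.56, −0.29, −1.24 and −0.61, and boundary 5 differed from their mean by −0.17. The change at boundary 5 exceeded their mean change by 0.23 with Del_1-265 (adjusted p = 8e-05, from the smallest p the permutations can give), by 0.20 with Y226A-F228A and by 0.14 without dox (adjusted p = 0.0222 for both, exact permutation test). With low expression the excess was 0.01 (adjusted p = 0.833). Set beside each boundary singly, boundary 5 did not always change most. At boundary 3 the difference from Full-length was 0.44 with Y226A-F228A, 0.32 without dox and 0.27 with Del_1-265, beside 0.43, 0.36 and 0.33 at boundary 5. At boundary 2 it was 0.31, 0.19 and 0.12, at boundary 1 it was 0.24, 0.18 and 0.13, and at boundary 6 it was 0.22, 0.27 and 0.0464. At boundary 4, the most insulated of them, it was −0.0685, 0.14 and −0.0748. Single boundaries were not tested against each other.

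When the flanks were slid along the region in steps of 20 kb, boundary 5 had the 6th lowest score of 179 positions in Full-length, WT and CTCF-AID libraries alike. It ranked 37th with Del_1-265, 50th with Y226A-F228A and 51st without dox. The differences from Full-length at this position were the 2nd highest of 179 for the no-dox and Del_1-265 libraries, the 3rd highest for Y226A-F228A and the 11th highest for low expression. In Full-length libraries the lowest position nearby was 20 kb below the boundary, toward Rlim and upstream peaks 2 to 4, with a score of −0.76. In WT and CTCF-AID libraries it was 20 kb above it, with −1.03 and −0.99.

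**Figure D2:**
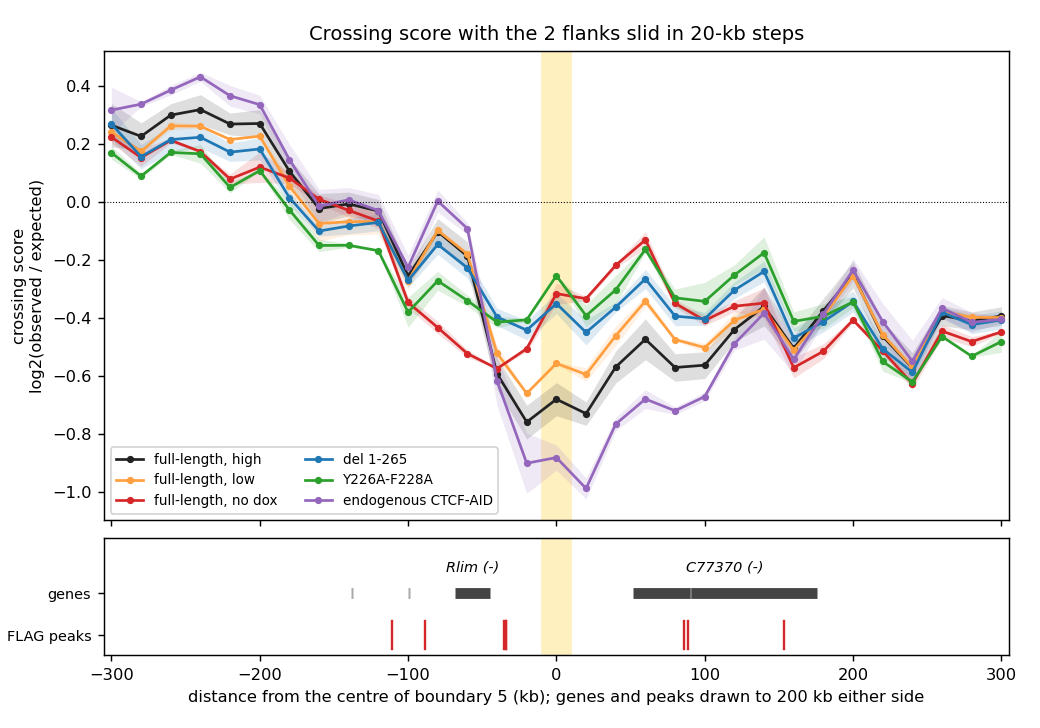
Crossing score (log2 of observed over expected contact) with both flanks slid in 20-kb steps, by distance from the centre of boundary 5, for 6 groups, as group means with SD as shading; the lower panel marks genes and FLAG peaks. At 0 kb the means run from −0.88 in CTCF-AID cells through −0.68 with Full-length and −0.56 with low expression to −0.35 with Del_1-265, −0.32 without dox and −0.25 with Y226A-F228A.

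Contact across the boundary was not lowered evenly. The flanks were divided into squares of 20 kb by 20 kb, and 24 of the 25 squares scored below 0 in Full-length libraries. The lowest, −1.25, joined the stretch 40 to 60 kb upstream, which holds Rlim, to 40 to 60 kb downstream, where C77370 ends. The square next to the boundary on both sides scored 0.01. In WT cells all 25 squares were below 0, down to −1.73 between 20 to 40 kb upstream and 40 to 60 kb downstream.

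All 25 squares were higher than Full-length with Del_1-265, by 0.05 to 0.68, and with Y226A-F228A, by 0.09 to 0.95. Without dox 21 squares were higher, and the 4 others were the square nearest the boundary and 3 that joined the stretch 60 to 100 kb upstream to the first 40 kb downstream. The largest differences without dox, 0.98 and 0.95, joined the stretch 20 to 40 kb upstream, which holds upstream peaks 2 to 4, to the last 40 kb of the downstream flank, which holds both downstream peaks. In the square at 80 to 100 kb downstream the score went from −0.76 with Full-length to 0.22 without dox and 0.19 with Y226A-F228A, but to −0.28 with Del_1-265. Of the differences in single squares, none was tested.

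**Figure D3:**
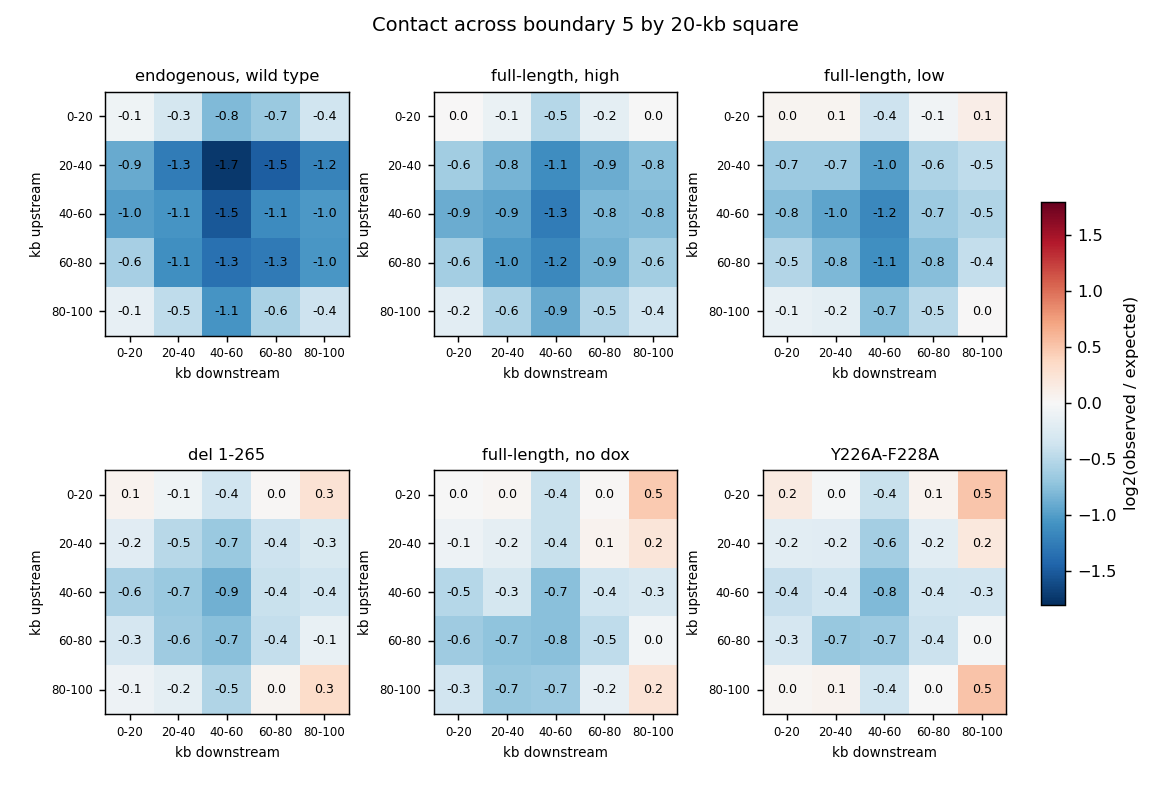
Mean log2 of observed over expected contact in the 25 squares of 20 kb by 20 kb formed by the upstream (vertical axis, distance below the bin) and downstream (horizontal axis, distance above the bin) flanks, for 6 groups. The middle of the map is darkest in WT (down to −1.73) and Full-length libraries (down to −1.25) and paler in the lower row, where some squares at 80 to 100 kb downstream turn red.

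Contact with the opposite flank was also followed fragment by fragment. In Full-length libraries the upstream fragments ranged from −1.27 (FOR 739, chrX:101136757-101137269, 74.1 kb below the bin) to −0.05 (REV 761, chrX:101197756-101199476, 12.5 kb below it), with a median of −0.83. The downstream fragments ranged from −1.23 (REV 793, chrX:101280902-101281661, 50.1 kb above the bin in an exon of C77370) to −0.14 (FOR 779, chrX:101241762-101254200, 16.8 kb above it, between SNORA17 and the bin), with a median of −0.71. Del_1-265 and Y226A-F228A were higher than Full-length at all 24 upstream and all 29 downstream fragments. The no-dox libraries were higher at 23 and 29 of them and low expression at 23 and 25.

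A step lay between the fragments on either side of upstream peaks 2 to 4. The 3 upstream fragments between these peaks and the bin took part in 44 pairs, which scored −0.17 ± 0.068 in Full-length libraries, while the pairs of the 21 fragments beyond the peaks scored −0.83 ± 0.068. In WT cells the same pairs scored −0.40 and −1.06. Beyond the peaks, contact rose by 0.40 with Del_1-265, by 0.51 with Y226A-F228A and by 0.44 without dox, and between peaks and bin by 0.12, 0.19 and 0.13. This division was made after the values had been seen, so the numbers describe it and no test was made. The fragments that hold these 3 peaks have no 5C primer. Upstream peak 1 straddles the HindIII cut between FOR 737 and REV 738, whose 29 pairs were the only ones with a peak in a fragment and scored −0.88, against −0.67 for the other 320.

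**Figure D4:**
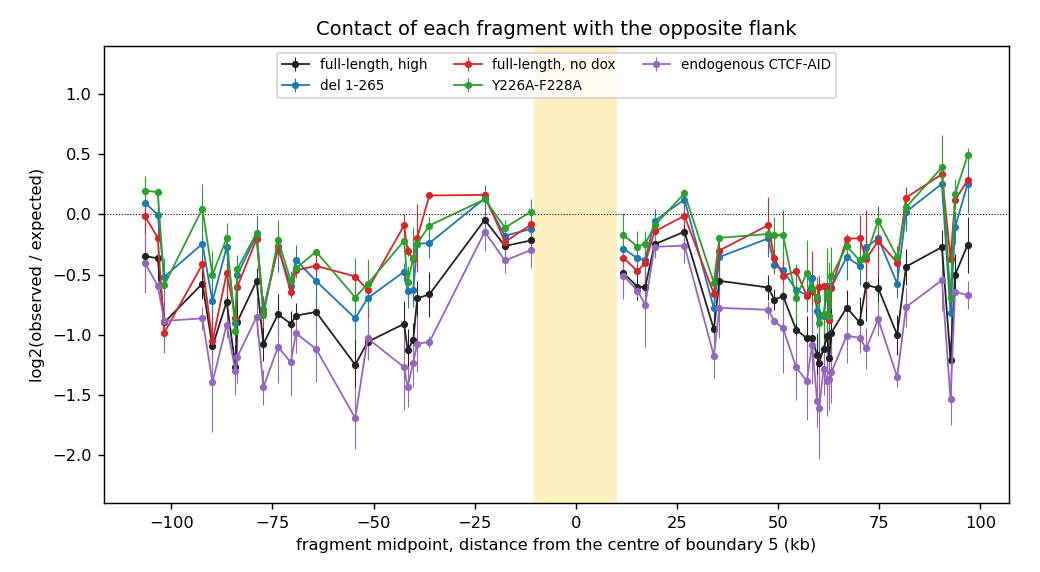
Log2 of observed over expected contact of each fragment with the opposite flank, by the distance of its midpoint from the centre of boundary 5 (kb, bin shaded), as group means with SD for 5 groups. The 3 upstream fragments nearest the bin stand closer to 0 than most others, at −0.05 to −0.26 with Full-length and −0.15 to −0.38 in CTCF-AID cells, and farther out the lines part, with CTCF-AID lowest and Y226A-F228A, no dox and Del_1-265 highest.

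Distance between the fragments, 26.2 kb at the least with a median of 123 kb, went with the depth of the deficit. Full-length libraries scored −0.19 at 20 to 60 kb, −0.70 at 60 to 100 kb, −0.78 at 100 to 140 kb and −0.82 beyond 140 kb. With Y226A-F228A the 4 classes scored 0.01, −0.36, −0.31 and −0.22, so the difference from Full-length was largest at the longest distances. Del_1-265 scored −0.04, −0.42, −0.43 and −0.35, and the no-dox libraries −0.02, −0.35, −0.35 and −0.41. Squares at similar distances also differed by position in Full-length libraries. That of 0 to 20 kb upstream and 80 to 100 kb downstream scored −0.01, and that of 40 to 60 kb on both sides −1.25. The parts of distance and position were not tested.

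Pair by pair, 331 of the 349 contacts (94.8%) were below expectation in the mean of the Full-length libraries, with a median of 0.576 of expected. This number was 330 in WT cells, 304 with low expression, 288 with Del_1-265, 272 without dox and 262 with Y226A-F228A. The expectation is a mean over pairs, and the share of all pairs below it was not computed, so these counts have no background. The lowest pair in Full-length among those with a signal of at least 1 (in units per 1000000 of the library's total), between an intron of Rlim (FOR 751) and an exon of C77370 (REV 793) 112 kb apart, stood at 0.0991 ± 0.127 of expected contact (SD, n = 14), and was at 0.290 with Del_1-265, 0.225 without dox and 0.259 with Y226A-F228A. That pair was chosen for its low value in Full-length libraries, so higher values in other lines are no evidence of a rise. The pair ranked 3 from the lowest, FOR 775 with REV 750, was at 0.179 with Full-length. It was at 0.206 with Del_1-265, 0.161 without dox and 0.0909 with Y226A-F228A. Of the 5 lowest pairs, 4 involved FOR 751 or REV 750 in Rlim introns. The highest pair, FOR 816 with REV 761 across 119 kb, was at 1.48 ± 0.45 of expected in Full-length libraries, and 3 of the 5 highest pairs involved REV 761. Single pairs carried little signal, 6.53 per 1000000 at the median.

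In a limma fit over 86626 primer pairs, which included 348 of those across the boundary, hardly any single contact passed. Across the boundary 0 pairs passed without dox (background 0.0358% of all pairs tested), 0 with low expression (background 0.00924%), 0 with Del_1-265 (background 0.799%) and 1 with Y226A-F228A (background 0.306%). Higher pairs alone made up 0.00231%, 0%, 0.0958% and 0.015% of all pairs tested. At an unadjusted p under 0.05 the counts across the boundary were 43, 1, 78 and 39 of 348. Over all 86626 pairs tested they were 4834, 1321, 9971 and 8439. The quasi-likelihood test of edgeR on raw counts called 0 pairs across the boundary in all 4 comparisons (background 0.00231%, 0%, 0.223% and 0.256% of all pairs tested). The 1 pair that passed joined FOR 802 in an intron of C77370 to REV 736 near upstream peak 1. Its signal was 12.2 and 13.1 per 1000000 in the Y226A-F228A libraries and 0.816 to 8.37 with a median of 3.97 in Full-length libraries, which do not overlap. The log2 difference was 1.50 ± 0.36 (SE, adjusted p = 0.0341, limma), and the call was lost when either Y226A-F228A library was left out.

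As a set, the contacts across the boundary were shifted upward. The median log2 difference in signal was 0.27 across the boundary and −0.08 over all pairs tested with Del_1-265, 0.31 and −0.06 with Y226A-F228A, 0.40 and 0.08 without dox, and 0.11 and 0.03 with low expression. Of the 348 pairs, 87.4%, 80.2%, 80.7% and 66.7% were higher than Full-length in these comparisons, against 40.6%, 46.0%, 56.5% and 53.1% of all pairs.

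**Figure D5:**
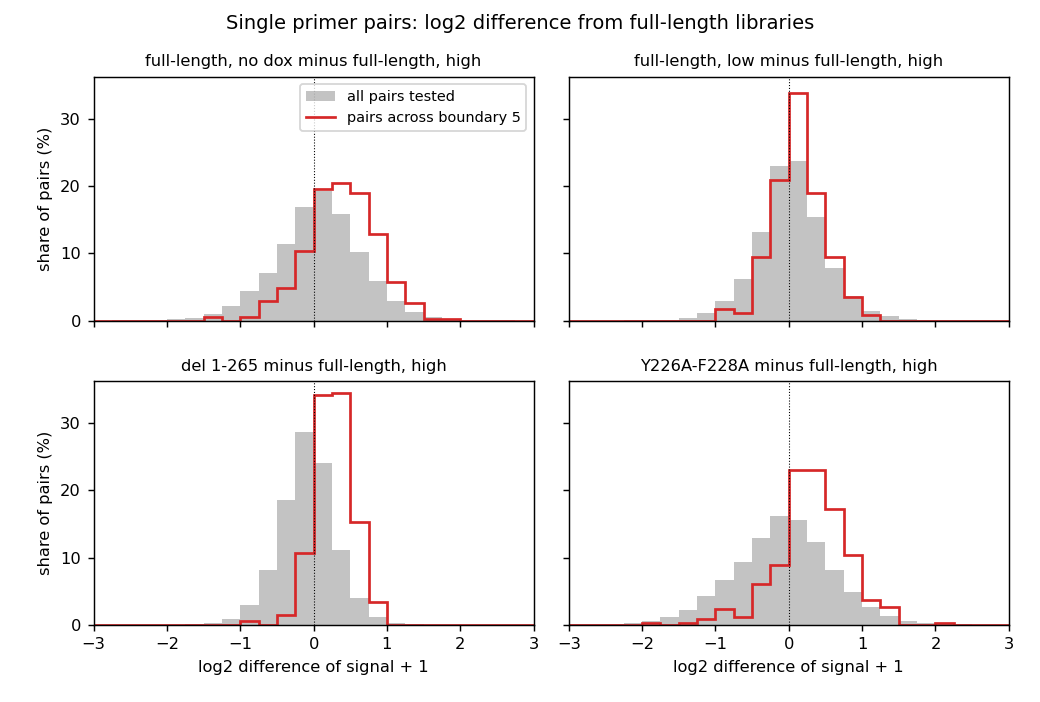
Share of primer pairs (%) by log2 difference in signal + 1 from the Full-length libraries, for the 348 pairs across boundary 5 (red outline) and all 86626 pairs tested (grey), in 4 comparisons. The red outline is shifted to the right of the grey in each panel, least with low expression (medians 0.11 and 0.03).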

How the data were processed

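5C libraries of mouse embryonic stem cells were grouped by the cell line and treatment in their labels, with EN142.1 grouped by its line name because its labels name 2 deletions. The members and lists were chosen with earlier results of these data known. Per the study's methods and the deposited headers, the authors assigned reads to 5C primers placed on mm9, and the deposited counts are raw counts per forward and reverse primer pair. The deposited signal was made from these by iterative correction of the unbinned matrices (cooltools), without poorly covered primers. It had a fixed sum in most libraries, but in some its sum was close to the count total. Both kinds occurred within some groups, Full-length among them. Bowtie2 and SAMtools are listed in the submitters' processing notes. The authors' FLAG–CTCF peaks are mm9 intervals found in both of their libraries, after 2 days of auxin and dox.

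All 1980 ends of primer fragments lie at HindIII sites of mm9. Signal was scaled to 1000000 over the forward-by-reverse total. A crossing score is log2 of the summed signal over the summed mean signal of pairs in the same 10-kb distance class. Scores within the flanks were made likewise, with no minimum distance. Group means were compared with 2-sided permutation tests, exact or with 100000 resamples where both groups hold 10 or more libraries, with Benjamini-Hochberg adjustment within each family (20, 6, 4, 8 and 4 comparisons), leaving out tests that cannot reach 0.05. Single pairs at 20 kb or more with a mean signal of at least 1 were tested on log2(signal + 1) with limma 3.58.1 in R 4.3.3, 1 fit over all 91 libraries, at an adjusted p under 0.05. This was tested on simulated data, as was the score. Alternatives used edgeR 4.0.16 on raw counts, other pseudocounts, no signal filter, other flanks, medians, no expectation, blocks of consecutive library numbers or equal replicate numbers, and leaving out each library. The labels give no batch, so 8 blocks of consecutive library numbers stood in for one. Count matrices of 9 libraries end early and were not used. Described by name are the 5 highest and 5 lowest pairs in Full-length libraries, the called pairs, the highest and lowest fragment of each flank, and genes within the flanks. Intervals for counting cover counting error only.

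Numbers shared between replicates of different groups were checked as a pairing, and in no comparison did every same-number correlation of deviations exceed 0.1. No pair of libraries among 4095 was identical, and same-group pairs differed by more than counting noise (chi-square per degree of freedom at least 3.03).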

Additional observations from a re-analysis of the deposited data

Results flagged for a closer look

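The clones of Del_13-33 differed from each other in contact across the boundary. Clone 1 lay above clone 2 by 0.12 on the log2 scale (exact permutation test, p = 0.00952, adjusted p = 0.0476 over 5 pairs of clones), with 6 of 6 libraries of clone 1 above every library of clone 2. Within the 2 blocks of library numbers that hold both, the difference was 0.059 and 0.15.

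Del_13-33 libraries with the transgene, taken over both clones, moved further from their reference than those with the deletion in endogenous CTCF. Against Full-length, the transgene clones together moved by 0.10, and the AID-tagged endogenous deletion moved by −0.01 from CTCF-AID, which is a difference of 0.11 (permutation of labels within each contrast, adjusted p = 0.00858). Against the untagged endogenous deletion, which moved by 0.00 from WT, the difference was 0.10 (permutation, adjusted p = 0.00796). In the transgene, 6 of 10 libraries were above every Full-length library, all of them from clone 1. Clone 2 alone moved by 0.03 (adjusted p = 0.315, exact permutation test). The permutations treated libraries of both clones as exchangeable although the clones differed, so these p-values do not separate an effect of the deletion from one of clone 1.

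Of 32 combinations of a group of 4 to 10 libraries and 1 of 4 measures, 2 held a library far from its group, where chance gives about 1 in 20. In Del_13-33 clone 1, replicate 3 had the highest score within the upstream flank, −0.12, while the others lay between −0.15 and −0.14. In clone 2 of the AID-tagged endogenous deletion, replicate 4 had the lowest score of boundary 5 relative to the other boundaries, −0.27, while the others lay between −0.18 and −0.17.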

How the results depend on the processing

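The differences of the no-dox, Del_1-265, 179-265, 264-288, H288R, Y226A-F228A, del_13-33-Y226A-F228A, N/C-term-swap and Mut_Parylation lines from Full-length kept their direction and, where the setting can reach 0.05, their side of the threshold under every alternative run. Smaller differences did not. From raw counts, 89-178 (0.0452) and Del_1-31 clone 2 (0.10) no longer passed, Del_1-88 turned to −0.00232, the flank values turned to 0.00582 (low expression, upstream) and −0.0426 (Del_1-265, upstream) and moved to −0.14 and −0.0140 (no dox, upstream and downstream), the excess over other boundaries with low expression turned to −0.00289, and 3 lines could not be computed. With medians over pairs, Del_1-88 passed (0.15), Del_1-265 against low expression (0.25) and Y226A-F228A (−0.0971) and Del_13-33 against no dox (−0.29) did not, and the untagged endogenous deletion turned to −0.00330.

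With flanks of 200 kb, Del_1-88 (0.16), EN142.1 (0.11) and the low-expression excess over other boundaries (0.13) passed, Del_1-31 clone 2 (0.11) did not, and Del_1-265 against no dox (0.0129), the endogenous deletions (−0.00905 untagged and 0.0270 tagged) and low expression within the downstream flank (0.00212) turned. Del_1-265 within the upstream flank turned and passed (−0.0206, adjusted p = 0.00704). With flanks of 60 kb, low expression (0.0896) and Del_1-31 clone 2 (0.0437) no longer passed, Del_1-31 clone 1 (−0.12), Sumoylation_deficient_1 (0.11) and Del_1-265 against no dox (−0.10) passed, and CTCF-AID against WT was 0.0825. With the flank scores subtracted, EN142.1 passed (0.0823). Without an expectation by distance, low expression (0.0816), 89-178 (0.15), Del_1-31 clone 2 (0.0887), Del_13-33 clone 1 (0.0305), Full-length against CTCF-AID (0.18) and Del_1-265 against low expression (0.20) and Y226A-F228A (−0.0574) and Del_13-33 against no dox (−0.39) no longer passed. Del_13-33 clone 2 (−0.0784), Sumoylation_deficient_2 (0.000362), Del_1-265 against N/C-term-swap (0.00398) and the untagged endogenous deletion (−0.0500) turned. The causes were not tested.

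Within blocks of consecutive library numbers, Y226A-F228A and del_13-33-Y226A-F228A were 0.33 and 0.29, the untagged endogenous deletion turned to −0.000322, no dox and Del_1-265 within the upstream flank were −0.0778 and −0.00400, and Del_1-265 passed within the downstream flank (−0.0119). Without the last block, an alternative chosen after seeing the data, Del_1-88 (0.0997) and EN142.1 (0.0787) passed. Equal replicate numbers did not pair the samples. With them as a block, upstream flank differences were −0.0579 (no dox), 0.0326 (low expression) and 0.00803 (Y226A-F228A). The excess over other boundaries was 0.24, 0.11 and 0.29 for the same lines. With Del_1-265, 1 pair across the boundary was called (background 0.604% of all pairs tested), and with low expression 0.00577% of all pairs were called. No other call changed under the replicate block.

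Calls of single pairs depended on the settings. Of all pairs tested, with no dox 0.0831% (pseudocount 0.1), 0.0866% (pseudocount 10), 0.282% (no filter), 0.0115% (blocks), 0.00231% (edgeR with TMM) and 0% (edgeR with median-of-ratios size factors) were called. With low expression 0.00231% (pseudocount 10), 0.0259% (no filter), 0.00231% (blocks) and 0% (both edgeR settings) were. With Del_1-265 it was 0.164% (no filter), 0.338% (blocks), and 0.223% and 0.256% (edgeR with TMM and with median-of-ratios), and with Y226A-F228A 1.04% (pseudocount 0.1), 0.0820% (blocks) and 0.197% (edgeR, median-of-ratios). Without the filter, which raised the number of pairs tested from 86626 to 208839, the calls went from 31 to 589 (no dox), 8 to 54 (low expression), 692 to 342 (Del_1-265) and 265 to 773 (Y226A-F228A). Across the boundary, 2 of 348 pairs were called with Del_1-265 at a pseudocount of 10 (background 0.678% of all pairs tested). With Y226A-F228A 0 were called under blocks (background 0.0820%) and under edgeR with TMM (0.256%) and with median-of-ratios (0.197%).

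Leaving out 1 library at a time, 9 against 2 libraries gave at best p = 0.0364 (exact permutation test). In the comparisons of Del_1-265 with low expression and Y226A-F228A, and of Del_13-33 with no dox, adjustment raised this to 0.0545. The differences ranged from 0.20 to 0.21 and from −0.104 to −0.0913 for Del_1-265, and from −0.29 to −0.23 for Del_13-33. They ranged from 0.0560 to 0.11 for Del_1-88 and from 0.0468 to 0.0705 for EN142.1, which passed without Full-length replicate 12 (0.0914 and 0.0704, adjusted p = 0.0491), from −0.0161 to 0.0148 for the untagged and from −0.0233 to 0.00771 for the tagged endogenous deletion, from −0.0109 to −0.00718 for Del_1-265 within the downstream flank, where it passed without clone2 replicate 1 (−0.0109, adjusted p = 0.0444), and from −0.000948 to 0.00905 within the upstream flank. Calls over all pairs ranged from 0.0127% to 0.0369% (no dox, fewest without its replicate 2), 0.00115% to 0.0277% (low expression, without its replicates 2 and 1, and 0.00462% to 0.00577% without Full-length replicate 2, 3, 4 or 10), 0.501% to 0.924% (Del_1-265, fewest without clone1 replicate 5, and 0.507% without clone2 replicate 1) and 0.182% to 0.377% (Y226A-F228A, fewest without its replicate 2). Calls across the boundary ranged from 0 to 1 with no dox, Del_1-265 and Y226A-F228A, the last losing its pair without either of its libraries. Over single pairs, libraries of the same group differed by more than counting noise (chi-square per degree of freedom 3.03 to 44.5), and whether deeper libraries would give more calls was not tested.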

Other observations

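Below boundary 5 the no-dox libraries showed less contact than Full-length libraries across some positions. Slid 60 kb below the boundary, over Rlim, the crossing score was −0.53 and −0.51 without dox, and −0.28 to −0.12 in the 14 Full-length libraries. Slid 80 kb below it, the scores were −0.45 and −0.42 without dox and −0.21 to −0.04 with Full-length. At neither position did the groups overlap. The position with the least contact within 200 kb was 20 kb below the boundary in Full-length libraries (−0.76) and 40 kb below it without dox (−0.57), at −0.59 in Full-length there. With Y226A-F228A the scores 60 and 80 kb below the boundary were −0.34 and −0.27, and with Del_1-265 −0.23 and −0.15. These positions were chosen after their values had been seen and no test was made.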
